A study of Malus domestica with 2 samples.

Results

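The genes described here act on sucrose, starch, sorbitol and the hexoses in the pedicel, the stalk of a fruit in an apple cluster. Members were the gene models whose deposited description holds a word such as invertase, sucrose, trehalose, starch, amylase or hexokinase, left out where it also holds inhibitor or transporter. Of 63541 gene models in the deposited table, 82 matched and 37 were members, because they had at least 1 mapped sequence in the table or stood on a deposited sheet of differing genes. The label fits these members in part. A search for fructokinase also finds phosphofructokinase, so 10 of the 37 are phosphofructokinases, enzymes of glycolysis, and none is described as a fructokinase. The words sorbitol and fructose left no member (0 for either word).

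Messenger RNA of lateral pedicels and of central pedicels from Saika, an apple (Malus domestica) cultivar, was sequenced on a Roche 454 GS-FLX pyrosequencer. Each of the 2 groups has 1 library, and no treatment, stage or number of pooled pedicels is given in the sources used here. No difference therefore has a replicate check, and a count test here sets one library against the other and says nothing of pedicels in general. The series title places the study in early fruit drop of self-abscising apple. In this bulk tissue, fewer cells of a type and less RNA per cell cannot be told apart.

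Sugar reaches a fruit through the phloem of its pedicel. In apple and its relatives in the rose family, sorbitol travels there beside sucrose. Sucrose is cleaved by invertases or sucrose synthase, its hexoses are phosphorylated by hexokinases and fructokinases, and the phosphates enter glycolysis, sucrose synthesis or, in plastids, starch. Trehalose 6-phosphate, made by one enzyme family and removed by phosphatases, serves plants as a signal of sucrose supply.

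The lateral library held 18368 mapped sequences and the central library 18483. Per the file headers the counted sequences are assembled contigs, so a count says how many contigs mapped to a gene model and not how many reads lie behind it. A count of 0 allows up to 3 sequences, or 0.0163% of the lateral and 0.0162% of the central library, by counting error alone.

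The 37 members had 44 sequences in the lateral library (95% exact Poisson interval 31.97 to 59.1) and 32 in the central library (21.9 to 45.2). They made up 0.240% of the lateral library (95% exact Clopper-Pearson interval 0.174% to 0.321%) and 0.173% of the central one (0.118% to 0.244%). Scaled by the library totals, with 0.5 added to each sum, the log2 ratio of lateral over central was 0.46. Its 95% exact interval, from the split of the sequences between the libraries, ran from -0.22 to 1.17, so a difference was not detectable with these counts.

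More members leaned to the lateral library than to the central one. The lateral count was higher for 18 members and the central count for 7, and 9 members had equal counts above 0. Over all 18337 gene models with a sequence, 35.4% had more in the lateral and 36.2% more in the central library, against 52.9% and 20.6% of the 34 members with a sequence. Of the lateral-leaning members 4 are on a sheet, and among the 27 members on no sheet 14 had more in the lateral and 7 more in the central library. The median log2 ratio over the 34 members was 0.75, the value of 2 lateral sequences against 1 central, and over all gene models with a sequence it was 0.01, the value of equal counts. These medians depend on the 0.5 added to each count, and no test was made of the lean, since the members were chosen with results of these libraries known.

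**Figure D1:**
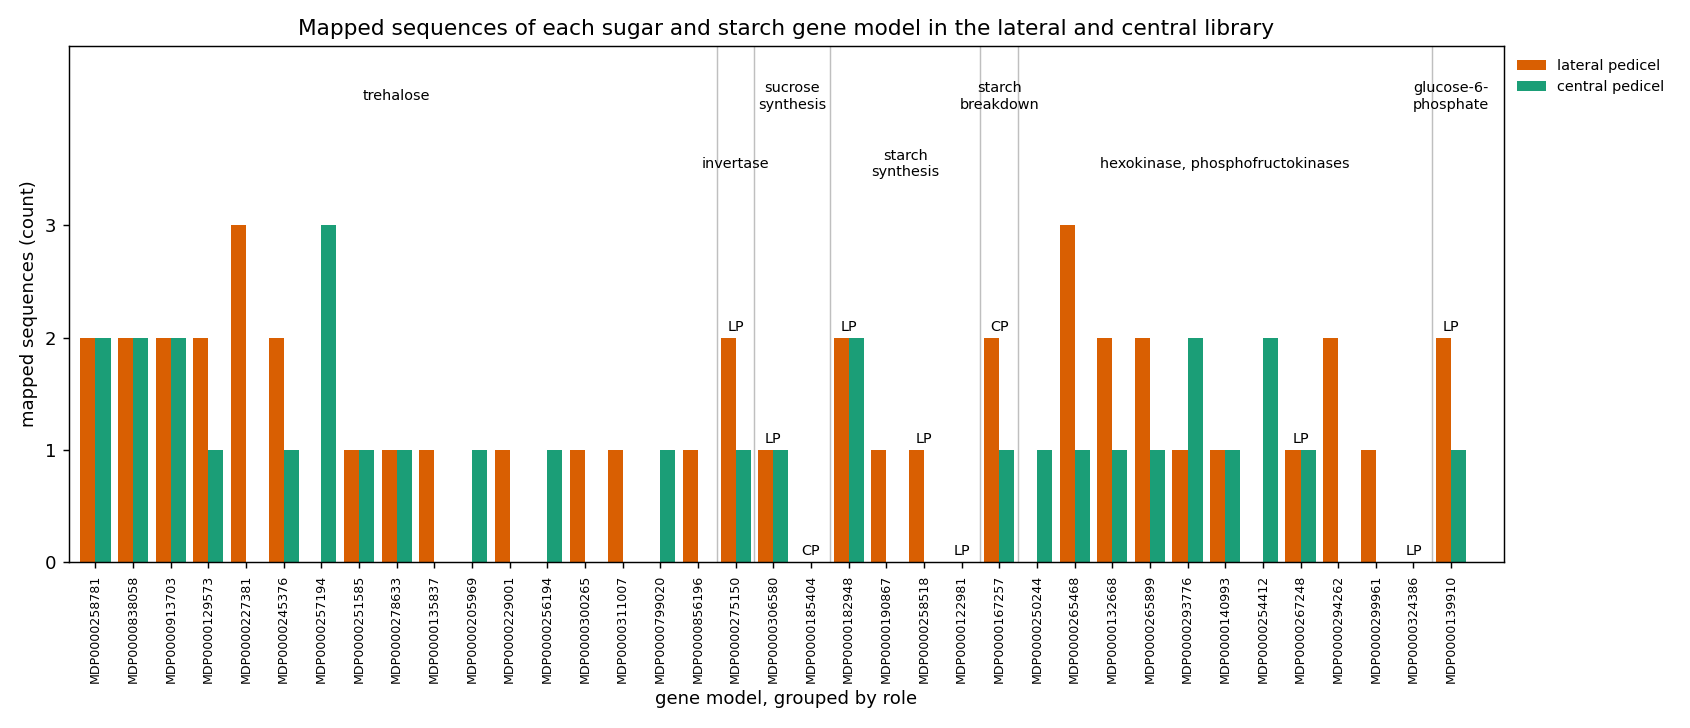
Mapped sequences (count) of each of the 37 gene models in the lateral and the central pedicel library, grouped by role, with LP or CP above a gene model that stands on the deposited sheet of that name. No bar is higher than 3 sequences, 18 gene models have the higher bar in the lateral and 7 in the central library, and 3 gene models on a sheet have no bar.

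No member was called by the count test. A call needed an adjusted p below 0.05 together with a 2-fold difference or more. The two-sided Fisher exact test called 0 of the 37 members and 0.0% of all 18337 gene models, and it gave 0 members an unadjusted p under 0.05. The negative binomial exact test of edgeR also called 0 members, with 0 at an unadjusted p under 0.05, at both assumed coefficients of variation. The smallest unadjusted Fisher exact p among members was 0.124, that of 3 sequences against 0. No member had more than 4 sequences over both libraries, and 4 sequences against 0 would give an unadjusted p of 0.0617 in the lateral and 0.125 in the central direction. The test could thus not call a member at any split of its sequences. No member exceeded 3 sequences in a library, which is about the one-sided limit that a count of 0 allows. The log2 ratio of a single gene is therefore not read as a difference.

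Of the members with a sequence, 12 had exactly 1 over both libraries, 7 had 2, 10 had 3 and 5 had 4. Members with 1 sequence sit just inside the rule, and the 45 matching gene models with none and no sheet entry sit just outside it. Shares of 35.3% of the members and 44.0% of all gene models with a sequence had just 1, and 29.4% and 13.3% had 3. None of the members (0) had 5 or more, a level reached by 4.85% of all gene models with a sequence. Members were long, with a median length of 1757 bases for those with a sequence, against 1353 bases over all gene models with one. The 45 matching gene models left out had a median length of 1077 bases.

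**Figure D2:**
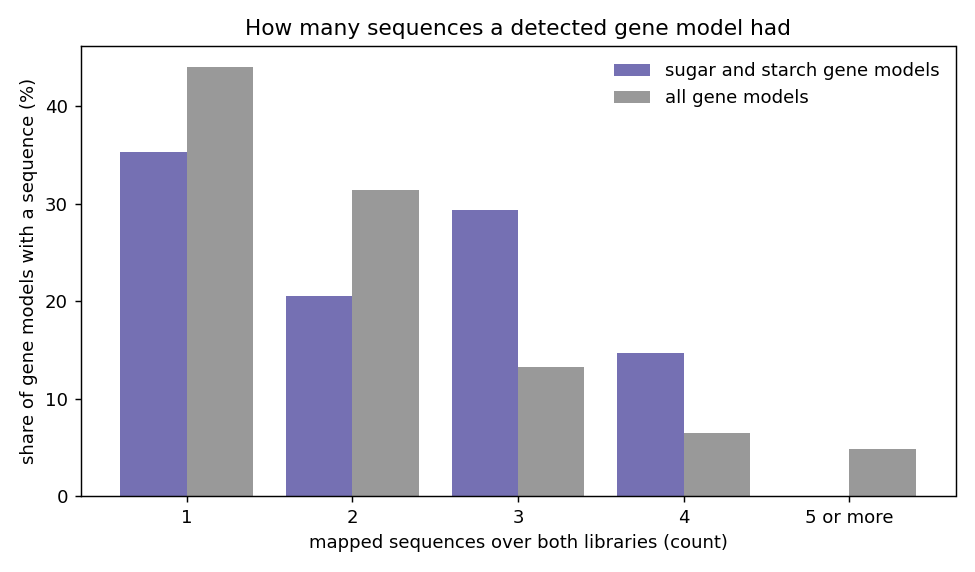
Share (%) of gene models with at least 1 mapped sequence that had 1, 2, 3, 4 or at least 5 sequences over both libraries, for the 34 members and for all 18337 gene models. The members reach 29.4% at 3 sequences, where all gene models reach 13.3%, and have no bar at 5 or more.

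The trehalose group was the largest, with 17 members of 27 matching gene models, all described as Trehalose-phosphatase. That enzyme turns trehalose 6-phosphate into trehalose, but in Arabidopsis many proteins of the synthase family carry the same domain, so the description does not separate the families. The group had 20 lateral sequences (95% exact Poisson interval 12.2 to 30.9) and 16 central ones (9.15 to 26.0), a log2 ratio of 0.32 (95% exact interval -0.69 to 1.38). Over uniquely mapped sequences alone the log2 ratio was 0.01. Of its members, 8 had more in the lateral library, 4 had more in the central one and 5 had equal counts.

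Individual trehalose members differed in where their sequences lay. MDP0000227381 had 3 lateral sequences and no central one, and MDP0000257194 had 0 lateral and 3 central ones. These were the members of widest split, each found in one library, at unadjusted Fisher exact p-values of 0.124 and 0.250. MDP0000258781, MDP0000838058 and MDP0000913703 had 2 lateral and 2 central sequences each. In RPKM, where a count is divided by the length of its gene model and the size of its library, MDP0000913703 stood at 42.8 in the lateral and 42.5 in the central library. MDP0000258781, the longer gene model at 4116 bases, stood at 26.5 and 26.3 RPKM in the same order. The same counts thus gave lower levels per length in the longer gene. MDP0000245376 had the highest lateral RPKM among the members, 91.0 against 45.2 in the central library, from 2 sequences against 1. None of those 3 sequences mapped uniquely, so they may belong to a near-identical copy.

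The trehalose members fell into a short and a long class, with no member length between 1248 and 1803 bases. A matching gene model inside this gap (1 gene model) had no sequence and no sheet entry, so the gap holds for the members only. The 6 short members, of 1041 to 1248 bases, had 6 lateral and 3 central sequences, and the 11 long ones, of 1803 to 4473 bases, had 14 and 13. Summed per length, the short class stood at 280 RPKM in the lateral and 132 RPKM in the central library, and the long class at 281 RPKM and 240 RPKM. The log2 ratio of summed counts was 0.90 (95% exact interval -1.22 to 3.64) for the short class and 0.11 (-1.08 to 1.32) for the long class. Both intervals include 0, and the difference between the classes was not tested. The boundary was set after the lengths were seen. No trehalose member was on a deposited sheet (0 on either).

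**Figure D3:**
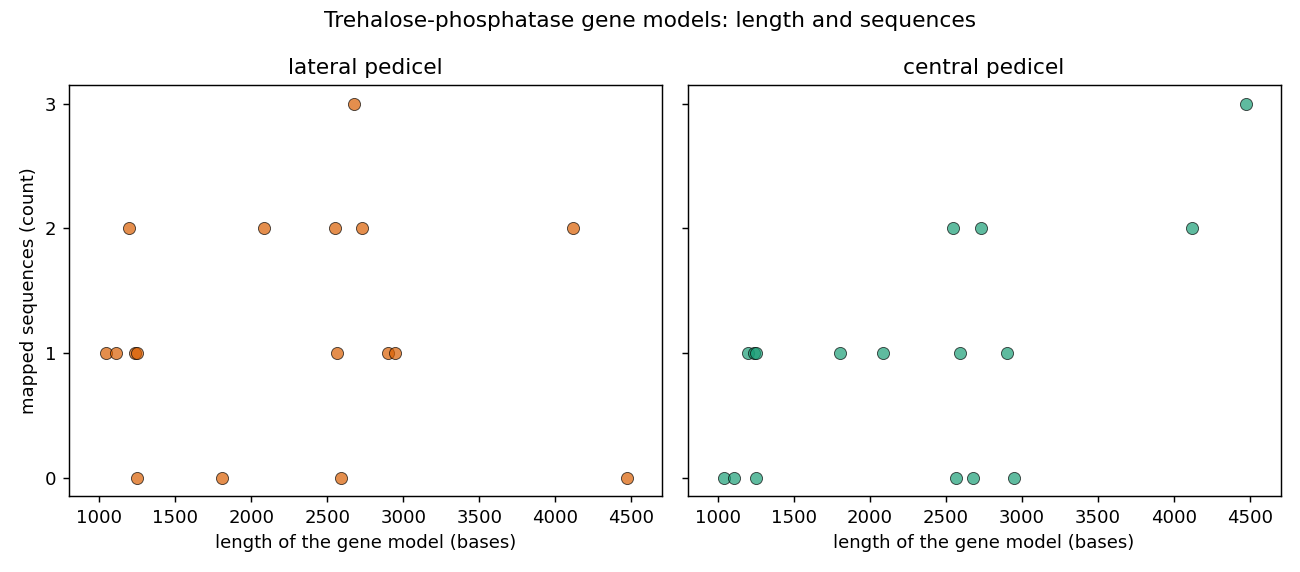
Mapped sequences (count) of the 17 Trehalose-phosphatase members against the length of the gene model (bases), for the lateral and the central library, 1 point per gene model. The gene model with 3 sequences is 2676 bases long in the lateral panel and 4473 bases long in the central panel, and the longest one has 0 in the lateral library.

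Hexose phosphorylation had 11 members, of which 1 is a hexokinase. Hexokinases phosphorylate glucose and other hexoses, and in Arabidopsis one of them also senses glucose. The hexokinase, MDP0000250244, had 0 lateral and 1 central sequence, which did not map uniquely, and the other 4 gene models described as hexokinase had none in either library.

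The 10 phosphofructokinases, which add a phosphate to fructose 6-phosphate in glycolysis, had 13 lateral sequences (95% exact Poisson interval 6.92 to 22.2) and 9 central ones (4.12 to 17.1). Their log2 ratio was 0.52 (95% exact interval -0.80 to 1.95). MDP0000265468 had 3 lateral sequences against 1 central, or 90.6 against 30.0 RPKM. MDP0000294262 had 2 lateral sequences and no central one, whereas MDP0000254412 had no lateral sequence and 2 central ones. Counts this small do not show that the copies differ between the libraries. Of the 10, 5 had more in the lateral library, 2 had more in the central one, 2 had equal counts and 1 had no sequence. Without the phosphofructokinases, the remaining 27 members had 31 lateral and 23 central sequences, a log2 ratio of 0.43 (95% exact interval -0.39 to 1.28).

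Starch synthesis had 4 members, with 4 lateral sequences (95% exact Poisson interval 1.09 to 10.2) and 2 central ones (0.242 to 7.22). The log2 ratio was 0.86 with a 95% exact interval from -1.79 to 4.48. ADP-glucose pyrophosphorylase makes ADP-glucose, the glucose donor of starch, and is built of large and small subunits. Its large subunit 1, MDP0000258518, had 1 lateral sequence and no central one. The gene model annotated as small subunit 2, MDP0000182948, had 2 in each library, or 32.7 RPKM in the lateral and 32.5 RPKM in the central library. At 3327 bases it is long, and its deposited gene ontology terms name riboflavin synthesis beside nucleotidyl transfer, so its sequences cannot be tied to the pyrophosphorylase alone. A starch synthase III, MDP0000190867, which extends the glucan chains, had 1 lateral sequence and no central one. A starch synthase of the ADP-glucose type, MDP0000122981, had no sequence in either library and is a member through its sheet entry. The remaining gene models described as starch synthase had 0 sequences in both libraries (7 gene models).

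Among the members, starch breakdown rested on MDP0000167257, annotated as alpha-amylase-like 2. Alpha-amylases cut starch chains internally. It had 2 lateral sequences against 1 central, or 76.6 against 38.0 RPKM.

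Of the gene models described as invertase or sucrose synthase, 1 had a sequence. MDP0000275150, annotated as cell wall invertase 4, had 2 lateral sequences against 1 central, or 62.8 against 31.2 RPKM. Cell wall invertases split sucrose outside the cell, where it leaves the phloem, and in Arabidopsis number 4 is known from nectaries. The 3 gene models described as neutral invertase, and all 7 described as sucrose synthase, had 0 sequences in both libraries. The sucrose synthase models are short, from 168 to 975 bases with a median of 294, so a full-length gene of the family could stand in the table under another description.

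Sucrose phosphate synthase, which makes the phosphate precursor of sucrose, had 2 members with the same annotation, sucrose phosphate synthase 1F. MDP0000306580 had 1 sequence in each library, or 16.6 RPKM in the lateral and 16.5 RPKM in the central library. MDP0000185404 had none in either. The glucose-6-phosphate/phosphate translocator 2, MDP0000139910, carries glucose 6-phosphate across the plastid envelope, and passed the rule because its name holds translocator and not transporter. It had 2 lateral sequences against 1 central, or 76.3 against 37.9 RPKM, but 1 uniquely mapped sequence in each library. Gene models described as glucose-6-phosphate dehydrogenase, fructose-bisphosphate aldolase and fructose-2,6-bisphosphatase, 1 of each, had 0 sequences in both libraries.

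**Figure D4:**
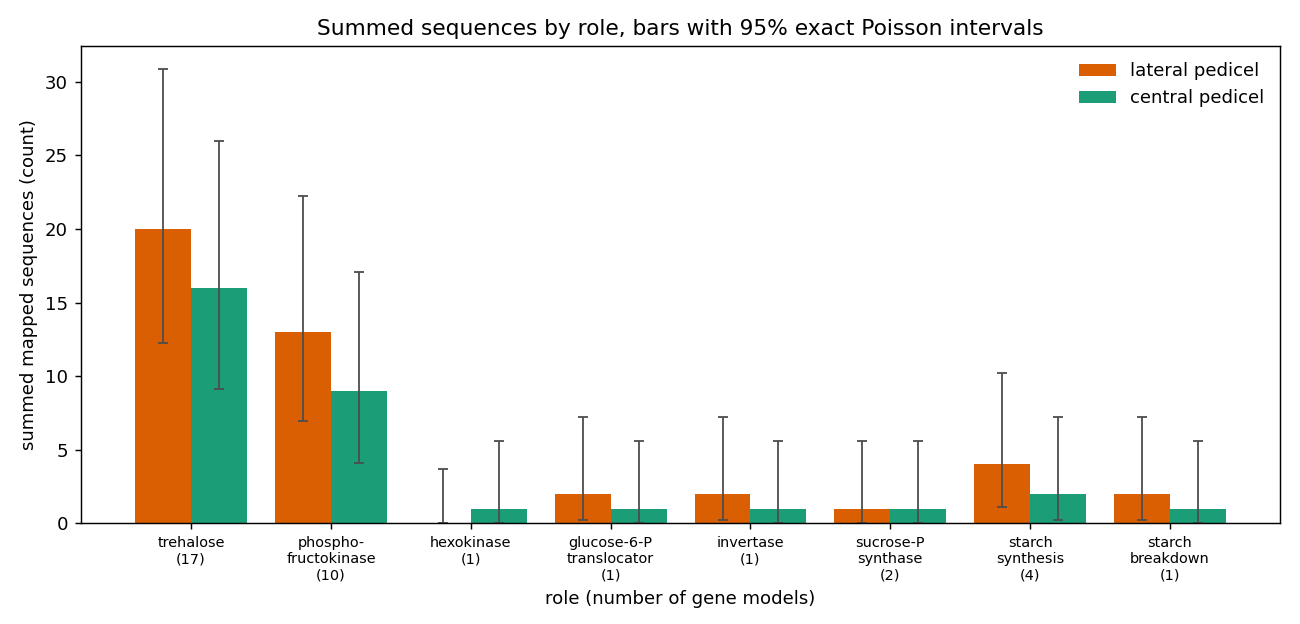
Summed mapped sequences (count) of each role in the lateral and the central pedicel library, with the number of gene models in brackets and 95% exact Poisson intervals as error bars, which cover counting error only. The intervals of the libraries overlap in every role, as in the trehalose group with 20 lateral and 16 central sequences.

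The deposited sheets, headed LP and CP for lateral and central pedicel, list genes that the authors found to differ with NOISeq, per the file headers. Of the members, 8 were on the LP sheet and 2 on the CP sheet. Over all 63541 gene models 1.17% were on the LP and 1.33% on the CP sheet, but the rule took every matching sheet entry, so nothing is read from the members' share. The sheets name genes by their Arabidopsis match, while the whole table names mostly protein domains. Of the 28 members found by the words in the whole table, 1 was on a sheet, the LP sheet, and the other 9 sheet members were found by their sheet annotation.

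The 8 LP members cover several steps. They include cell wall invertase 4, a sucrose phosphate synthase 1F, the starch synthase MDP0000122981, the translocator, phosphofructokinase 4 and another phosphofructokinase family protein. The other LP members are the ADP-glucose pyrophosphorylase large subunit 1 and the gene model annotated as small subunit 2. In the authors' deposited table cell wall invertase 4 and the translocator have an FDR of 0, as do 183 of the 741 LP entries. The phosphofructokinase family protein MDP0000324386 has a deposited FDR of 4.23e-13 and the pyrophosphorylase large subunit MDP0000258518 one of 2.43e-08. The gene model annotated as small subunit 2, MDP0000182948, has a deposited FDR of 3.83e-07. The starch synthase MDP0000122981 and phosphofructokinase 4, MDP0000267248, follow in the authors' deposited table at 5.91e-07 and 6.21e-07. The LP sucrose phosphate synthase MDP0000306580 has 1.88e-05, near the highest FDR of the LP sheet, 4.78e-05. In the authors' deposited table the CP members, alpha-amylase-like 2 and the other sucrose phosphate synthase 1F, MDP0000185404, have 1.22e-06 and 1.67e-05. Sucrose phosphate synthase 1F is thus listed on both sheets through different gene models.

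Counts and sheets were then set side by side. On the LP sheet, 3 members had more sequences in the lateral library, 3 had equal counts and 2 had none, and 0 had more in the central library. Alpha-amylase-like 2 stood on the CP sheet with 2 lateral sequences against 1 central, a split too small to give a direction. The other CP member had none. Among all 741 LP entries the lateral count was higher for 233 and the central count for 116. Among all 844 CP entries it was the lateral count for 137 and the central count for 287. Of these entries, 159 on the LP and 190 on the CP sheet had no sequence. The sheets thus cannot rest on these contig counts alone.

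Of the members, 3 have a deposited log2 ratio, all on the LP sheet. The authors' deposited table gives -2.42 for cell wall invertase 4 and -2.25 for both the translocator and phosphofructokinase 4, MDP0000267248, which had 1 sequence in each library. That same value is deposited for 11 of 215 genes. The first line of that table gives the direction as lateral over central, while the ratios are negative for all 113 LP genes that have one and positive for all 78 CP genes, so the sign is printed as deposited and not read as a direction. The whole table's own test, Kal's Z-test on RPKM, has a deposited FDR under 0.05 for 18 members with the higher lateral value and 7 with the higher central value, against 33.7% and 34.0% of all gene models with a sequence. These are all 25 members with unequal counts, those with 1 sequence against 0 included.

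Other genes of the same pathways, found by words in the descriptions with the members left out, also had few sequences. Genes found by words for glycolysis and hexose phosphate had 10 lateral and 8 central sequences over 10 of 65 gene models with a sequence. The count test called 0 of them in either direction. Of them, 2 were on the LP sheet, phosphoglycerate kinase 1 and another of that family. On the CP sheet were 3, plastid glyceraldehyde-3-phosphate dehydrogenase 1, enolase and pyrophosphorylase 4. Over all gene models 1.17% were on the LP and 1.33% on the CP sheet. The words were also searched in the sheet annotations, which only genes on a sheet have, so nothing is read from these entries against those shares. The word pyrophosphorylase found the last one, whose annotation names no step of glycolysis. Phosphoglycerate kinase 1 had 1 sequence in each library and the deposited log2 ratio of -2.25 that the translocator also has. Words for starch and glucan found 3 gene models, pyrophosphorylase 4 again among them, with 1 lateral and 3 central sequences in all. Another of them, MDP0000191488 on the LP sheet, had 1 lateral and 2 central sequences. It was found by the word phosphorylase, and its annotation names a GDP-D-glucose phosphorylase and no step of starch. These counts are therefore not read as counts of starch genes. Under domain names, glycosyl hydrolase family 32, to which invertases belong, had 1 lateral and 1 central sequence over 4 gene models. Family 14, the beta-amylases, had 0 in both libraries over 7. In family 13, the domain of alpha-amylase-like 2, 7 gene models that are not members had 2 lateral and 1 central sequence, all in 1 gene model. Aldo/keto reductases, the family of the enzyme that makes sorbitol 6-phosphate in apple, had 7 lateral and 8 central sequences over 49 gene models. The description does not tell that enzyme from its relatives. The words for sugar signalling kinases found 0 gene models.

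Sugar transporters are no members. With invertase inhibitors, those found by words had 5 lateral and 7 central sequences over 7 of 10 gene models with a sequence. The words also found gene models annotated as nucleotide-sugar transporters, so the sums are not those of sucrose and hexose transporters alone. Of these, MDP0000485007 had 1 lateral and 2 central sequences, MDP0000455174 had 0 and 1, and MDP0000147684 had none. The list had 4 LP and 2 CP entries, but its words were also searched on the sheets, so nothing is read from them. Sucrose transporter 4, which the word transporter removed, was on the LP sheet with 0 lateral sequences and 1 central, and sugar transporter 1 was on the LP sheet with 2 in each library. A plant invertase/pectin methylesterase inhibitor protein, MDP0000854242, was on the CP sheet with 0 lateral sequences and 1 central.

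Starch is made in plastids, and markers of chloroplast-bearing cells were counted beside its genes. Of the 96 gene models found by their words, 19 were on the LP sheet and 9 on the CP sheet, beside 1.17% and 1.33% of all gene models. The words of each marker list were also searched in the sheet annotations, which only genes on a sheet have. The sheet entries of these lists are enlarged by this search, so nothing is read from them against those shares. Starch synthesis had 3 and 0, but those 3 matched the words only in their sheet annotation. Nothing is therefore read from 3 against 0. In the whole table the marker list had 25 lateral and 25 central sequences over 32 of 96 gene models with a sequence. Of its defining members, those that the whole table describes as Chlorophyll A-B binding protein (15 gene models) or as a large or small chain of rubisco (3 gene models each) were at 0 in both libraries. Genes so named on the sheets had a few, among them the Chlorophyll A-B binding family proteins MDP0000471588 with 2 lateral and 1 central sequence and MDP0000542944 with 1 in each library, and a small chain of rubisco, MDP0000731480, with 0 lateral and 1 central. Xylem and secondary wall markers had 15 lateral and 11 central sequences, with 5 LP entries and 1 CP entry, and phloem markers had 2 and 2, with 1 entry on each sheet. The part of these cell types in the sugar and starch counts was not tested. Of the members' own sequences, 84.1% in the lateral and 87.5% in the central library mapped uniquely, against 89.4% and 89.3% over all gene models, and 5 members had no uniquely mapped sequence.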

How the data were processed

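Lateral and central pedicel, 1 library each, were taken as the 2 groups from the labels. The authors deposited counts of all and of uniquely mapped sequences per gene model, and RPKM, which equals the count over gene length and library total. Gene lengths are deposited too, and 92.2% are multiples of 3. Deposited p-values and FDR come from Kal's Z-test (whole table) and NOISeq (sheets), per the file headers, and a further file holds deposited log2 ratios. Which aligner, assembler and annotation release were used is not given in the sources used here. A further 12 columns of library values in the whole table were left aside.

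The members, lists and tests were chosen with earlier results of these data known. The count test was a two-sided Fisher exact test per gene model against the rest of each library, with Benjamini-Hochberg adjustment over all gene models with at least 1 sequence. The negative binomial exact test of edgeR 4.0.16 (R 4.3.3) used assumed coefficients of variation of 0.2 and 0.4. DESeq2 1.42.0 gave size factors. Intervals cover counting error only and take contigs as independent. With 18368 lateral and 18483 central sequences in all, precision is low. Named are all members on a sheet, with a deposited ratio or with at least 4 sequences, and the most abundant of each role; other members named were chosen after their values were seen. Member identifiers matched 0 entries of the reference gene table, so no coordinates or sequences are given. Alternatives covered scaling, unique mapping, the unit, the pseudocount, thresholds and the words. Python 3.11.15, numpy 2.4.6, pandas 2.3.3, scipy 1.17.1 and matplotlib 3.10.9 were used.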

Additional observations from a re-analysis of the deposited data

How the results depend on the processing

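The setting without phosphofructokinases was chosen after seeing the data. A count was taken to stay when it was within 1.5 times the reported one, and 5 of 89 alternative values moved beyond the limits used. For summed log2 ratios the limit was the counting interval, which in small roles is too wide to be left, so their staying inside it says little. Over uniquely mapped sequences the log2 ratio was 0.40 for all members (0.46 as reported) and 0.01 for trehalose (0.32). It was 0.01 for the translocator (0.75) and 1.59 for sucrose phosphate synthase (0.01), each resting on a single gene model. The 1.59 came from 1 lateral sequence against 0 central in MDP0000306580, with 0.5 added to each, so no difference is read from it. By uniquely mapped sequences, 13 members had more in the lateral and 6 more in the central library. In summed RPKM the log2 ratio was 0.57 for all members and 1.56 for starch synthesis (0.86). Without phosphofructokinases 13 members had more in the lateral and 5 more in the central library, and with at least 2 sequences 10 and 3. The words searched in the whole table alone found 28 members and on the sheets alone 10. Of the 8 LP members, 7 had a deposited FDR under 1e-06 and 6 had a sequence, and of the 2 CP members 0 and 1. Called members stayed at 0 in each test that could be run, where no split of a member's counts could be called. Minimums of 5 and 10 sequences left no member to test and gave no value. No paired analysis was possible because each group has 1 library.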
